A study of Homo sapiens with 54 samples.

Results

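The subject is the response of A549 cells that carry a USP18 expression vector (USP18 cells) to 5 µM of the compound coded CP14, measured by RNA sequencing after 48 h. Its members are the 3 libraries labelled with CP14 at 5 µM in these cells and the 3 libraries of the same cells given vehicle (DMSO), 6 of the 54 libraries of the series, chosen by their labels. Of the 58870 genes listed, 33416 had a count in any library, and 15947 passed the filter on low counts and were tested. A549 is an established human lung cancer cell line. The other groups used here were the same pair of treatments in A549 cells that carry an empty vector without insert, and USP18 cells given CP14 at 1 or 2.5 µM, CP18 at 5 µM or CP2 at 5 µM, each for 48 h with 3 libraries. Each vector stands for 1 engineered cell population, so a difference between USP18 and empty-vector cells is a difference between 2 populations. The study text does not state which code is β-lapachone, and the labels do not say whether replicates were separate cultures, so the p-values measure the spread between these libraries.

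USP18 is a protease that removes the ubiquitin-like modifier ISG15 from proteins and also restrains signalling from the type I interferon receptor. ISG15 and its conjugating enzymes are themselves induced by interferon. Quinones, the chemical class to which β-lapachone belongs, can be reduced by NQO1 and other NAD(P)H-dependent enzymes, many of which are controlled by the transcription factor NRF2. A549 cells carry high NRF2 activity and are known for high NQO1. Other stress pathways read out here are the p53 response, which halts the cell cycle, and the integrated stress response, in which ATF4 raises amino acid supply genes and the pro-apoptotic factor DDIT3.

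Library totals ran from 20010373 to 20815795 expected counts with vehicle and from 18800386 to 19550115 with CP14, within the range of 16673228 to 25609062 over all 54. A count of 3 in a library of this size corresponds to 0.143 to 0.154 counts per 1000000 (CPM), which was taken as the limit of detection (counting error only). Levels are given as CPM scaled over all 54 libraries by edgeR's trimmed mean method. The share of counts from genes named RPL or RPS with a digit was 5.86% to 5.96% with vehicle and 8.13% to 8.36% with CP14. These names cover cytosolic ribosomal protein genes and also other genes so named, such as pseudogenes. The share from all RNAs encoded in mitochondria, ribosomal RNAs included, was 2.68% to 3.25% and 2.71% to 2.81%. CP14 replicate 1 differed more from the other CP14 replicates (chi-square per gene of 4.56 and 4.59) than those did from each other (2.29). Pairs of vehicle replicates gave 2.00 to 2.66. Without CP14 replicate 1 the main comparison below called 2950 genes in place of 2865. The epithelial keratin genes of the line were abundant (KRT8 at 3691 to 3805 CPM and KRT18 at 3400.3 to 3490.2 CPM with vehicle), whereas SFTPC, SFTPB, SFTPA1 and NKX2-1, 4 of 6 markers of alveolar type II cells, were below the filter. Of the other 2, ABCA3, a lipid transporter gene, rose from 41.6, 39.7 and 43.1 to 80.7, 81.2 and 81.0 CPM (log2 fold change 0.96), and NAPSA did not pass (adjusted p = 0.817). Of 13 markers of immune, endothelial and fibroblast cells, 3 passed it (CD68, COL1A1 and COL3A1), and PTPRC, CD3E and DCN were among those with no count in the 6 libraries. The summed level of the 4 immune markers, all of it CD68, was 31.9 to 35.3 CPM with vehicle and 94.6 to 99.7 CPM with CP14. The 4 endothelial markers summed to at most 0.547 CPM and the 5 fibroblast markers to 8.00 to 8.27 CPM and 4.32 to 4.60 CPM. The part of such cells in any result was not tested.

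USP18 itself (ENSG00000184979.9, chromosome 22 from 18150118 to 18177397, GRCh38 as annotated in GENCODE v44, like the positions below) checked the labels. It was at 1302, 1292 and 1328 CPM in the vehicle libraries of USP18 cells and at 10.8 ± 0.250 CPM (SD, n = 3) in vehicle-treated empty-vector cells. With 5 µM CP14 it was at 1965, 2115 and 2062 CPM, above every vehicle library, a log2 fold change of 0.64 (SE 0.034) with an adjusted p of 3.90e-13. Counts of the vector and of the native gene cannot be told apart in the table.

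Most genes tested differed between the 5 µM CP14 and vehicle libraries, the larger part of them by no more than 1 on the log2 scale. An adjusted p under 0.05 in edgeR's quasi-likelihood test was reached by 10944 of the 15947 genes tested (68.6%), 5481 higher (34.4%) and 5463 lower (34.3%). A gene was called if it also rose or fell by more than 1 on the log2 scale, which held for 2865 genes (18.0%), 1471 higher (9.22%) and 1394 lower (8.74%). Of the 2865, 2799 had 3 CP14 libraries that did not overlap with the 3 vehicle libraries, as did 71.4% of all genes tested. The log2 fold change was beyond 2 for 768 called genes and beyond 3 for 281. In 181 called genes the counts of a group were at the limit of detection. The median log2 fold change over all genes tested was 0.01. In bulk RNA, fewer cells that express a gene and less of its RNA per cell cannot be told apart.

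The largest rise among well-covered genes that were detected with vehicle was in GREM1 (ENSG00000166923.11, chromosome 15 from 32718004 to 32745106), which encodes the secreted BMP antagonist gremlin. It was at 0.697, 0.878 and 1.10 CPM with vehicle and 75.5, 93.4 and 90.0 CPM with CP14, 95.4-fold higher (log2 fold change 6.58, SE 0.13, adjusted p = 6.50e-20). TMEM265 had no count with vehicle and reached 7.02, 9.01 and 7.58 CPM, at least 53.8-fold higher than the 3-count limit per library. The non-coding AC034213.1 was also at the limit with vehicle and was at 12.5, 10.3 and 9.98 CPM with CP14, at least 74.7-fold higher. In all 3 genes the groups lay far apart, and CP14 replicate 1 was the lowest treated library for GREM1 and TMEM265 and the highest for AC034213.1. BEX2 rose from a range of 2.89 to 3.71 CPM with vehicle to one of 78.1 to 86.8 CPM with CP14, a log2 fold change of 4.56 (SE 0.093). LAMP3, a lysosomal membrane glycoprotein gene induced in stressed and dendritic cells, rose from a range of 1.19 to 1.91 CPM with vehicle to one of 36.9 to 40.2 CPM with CP14, a log2 fold change of 4.55 (SE 0.12). The remaining genes of the 10 largest rises were OLAH, ALOXE3, CCBE1, TM6SF1 and BCL2A1, with log2 fold changes from 4.50 (BCL2A1, an anti-apoptotic BCL2 relative) to 5.38 (OLAH, a medium-chain fatty acid thioesterase).

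The largest fall was in SCNN1G (ENSG00000166828.3, chromosome 16 from 23182745 to 23216883), a subunit gene of the epithelial sodium channel. It was at 16.1, 16.6 and 17.2 CPM with vehicle and 0 in all 3 CP14 libraries, at least 111-fold lower. Its partner subunit SCNN1B went from 21.4, 20.8 and 22.3 to 0.786, 0.841 and 0.614 CPM, a log2 fold change of -4.84 (SE 0.16) with an adjusted p of 1.27e-16. Both channel genes were therefore lower in every CP14 library. The tight junction gene CLDN2 went from a range of 46.6 to 53.4 CPM with vehicle to one of 1.73 to 2.01 CPM with CP14 (log2 fold change -4.75), and HLA-DMB, a class II antigen loading gene, from a range of 56.3 to 60.2 CPM with vehicle to one of 1.48 to 3.59 CPM with CP14 (-4.66). FGB, the fibrinogen beta chain, was at 402, 395 and 414 CPM with vehicle and 19.1, 13.7 and 19.4 CPM with CP14, 23.3-fold lower (log2 fold change -4.54, SE 0.093, adjusted p = 6.83e-20). Others of the 10 largest falls were CA9 (-4.65), SSTR2 (-4.47), CP (-4.41, ceruloplasmin) and VIL1 (-4.34, villin), all as log2 fold changes with groups that did not overlap.

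**Figure D1:**
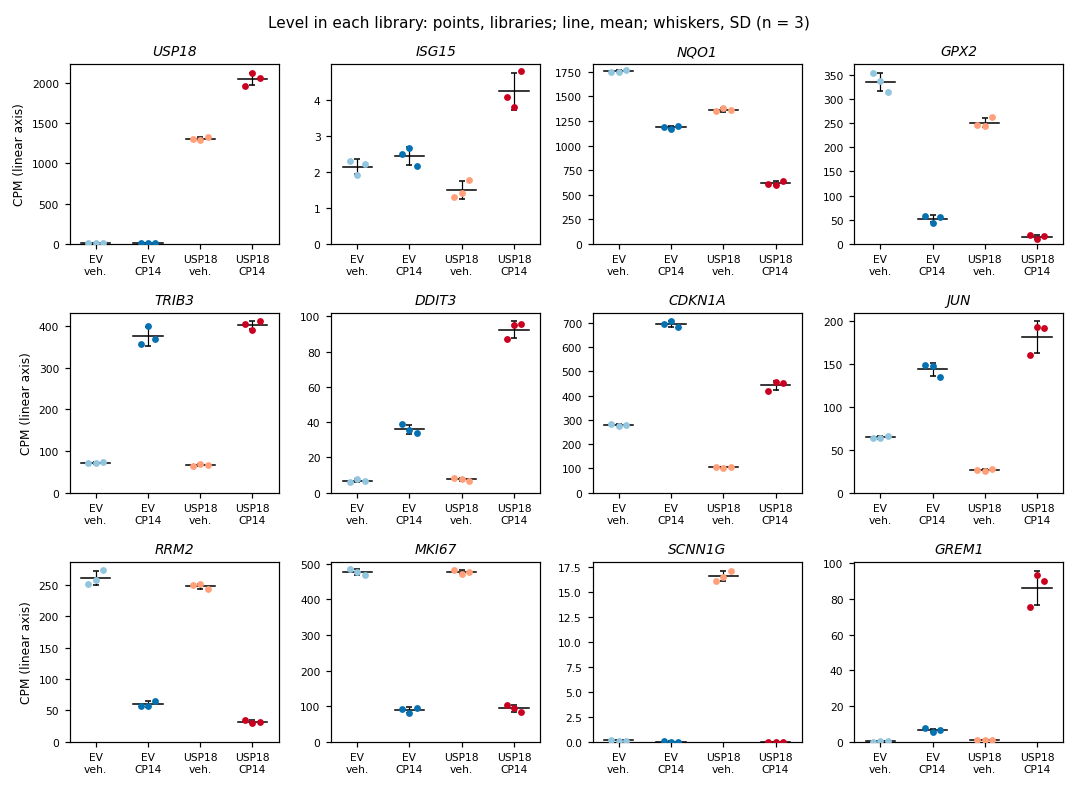
CPM (linear axis from 0) of 12 genes in each library of empty-vector (EV) and USP18 cells given vehicle or 5 µM CP14; points are libraries, the line is the mean and whiskers are the SD of 3. In USP18 cells the CP14 and vehicle libraries do not overlap in any of the 12 genes, of these groups SCNN1G is high in vehicle-treated USP18 cells and near 0 in the others, and CDKN1A and JUN start from a lower vehicle level in USP18 than in EV cells.

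Genes of DNA replication fell together. Of 44 listed genes, all tested, 44 had an adjusted p under 0.05 in the lower direction, beside 34.3% of all genes. Of the 44, 35 were called, beside 8.74% of all genes called lower. The median log2 fold change was -1.55 against 0.01 over all genes. Among origin licensing genes (12 of 12 lower), MCM2, a subunit of the replicative helicase, went from 107, 109.8 and 105 to 29.8, 32.4 and 34.4 CPM, a log2 fold change of -1.74 (SE 0.047). ORC1 of the origin recognition complex had a log2 fold change of -2.34. Among fork and polymerase genes (20 of 20 lower), GINS2, another helicase component, went from 25.1, 28.2 and 29.2 to 3.49, 5.20 and 3.38 CPM, 6.86-fold lower. CDC45 had a log2 fold change of -2.03. The genes of nucleotide supply and their regulators (12 of 12 lower) held the largest fall of the list, RRM2, the S phase subunit of ribonucleotide reductase. RRM2 was at 249.6, 252 and 244 CPM with vehicle and 34.9, 30.3 and 31.3 CPM with CP14, a log2 fold change of -2.95 (SE 0.055) with an adjusted p of 1.73e-20. RRM1, the large subunit of the enzyme, went from a range of 194 to 201 CPM with vehicle to one of 70.5 to 78.7 CPM with CP14 (log2 fold change -1.43).

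Mitosis genes fell in the same libraries. Of 38 listed genes, 37 were lower and none was higher at an adjusted p under 0.05 (34.3% and 34.4% of all genes). Of the 38, 35 were called lower (8.74% of all genes), and the median log2 fold change of the list was -1.68. CDK1, the mitotic kinase, was at 163, 171 and 164 CPM with vehicle and 45.0, 38.4 and 40.2 CPM with CP14 (log2 fold change -2.01, SE 0.06). PLK1 went from 127, 133 and 133 to 27.2, 23.1 and 24.0 CPM, 5.32-fold lower. The kinesin genes KIF20A, which acts in cytokinesis, and KIF11, which separates spindle poles, had log2 fold changes of -2.74 and -2.27. MKI67, the proliferation antigen Ki-67, went from 482, 471 and 478 to 104, 93.9 and 83.6 CPM (log2 fold change -2.35, SE 0.059, adjusted p = 1.51e-18). CDC20, an activator of the anaphase-promoting complex, had the smaller log2 fold change of -1.09.

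The sequences before the start sites of 3 of these genes are given because both lists fell as a block and motifs known from cell cycle promoters lie in them. They belong to the called members with the largest falls that held the named motifs. The RefSeq promoter table (GRCh38.p14) matched 11580 of the 15947 tested genes, with 250 bases before and 50 bases after the start. On either strand, the CCAAT box (CCAAT, bound by NF-Y) was in 36.2% of all 11580 promoters, in 46.2% of the 980 of called falls and in 30.2% of the 937 of called rises. The cell cycle homology region (TTTGAA) was in 9.67%, 20.0% and 9.82%, and the E2F element (TTTGGCGC or TTTCCCGC) in 3.61%, 5.82% and 1.92%. Of the 31 mitosis genes with a promoter, 24 (77.4%) held a CCAAT box and 20 (64.5%) a cell cycle homology region, and of 38 DNA replication genes 19 (50.0%) held an E2F element. These shares describe letters and were not tested. The 250 bases before the start are printed 5′ to 3′ on the gene's strand, with matches to the CCAAT box and the cell cycle homology region in capitals for PLK1 (chr16:23678639-23678888, plus strand) and MKI67 (chr10:128126424-128126673, minus strand) and to the E2F element for GINS2 (chr16:85688955-85689204, minus strand). In MKI67 a homology region and a CCAAT box on the other strand overlap.
PLK1: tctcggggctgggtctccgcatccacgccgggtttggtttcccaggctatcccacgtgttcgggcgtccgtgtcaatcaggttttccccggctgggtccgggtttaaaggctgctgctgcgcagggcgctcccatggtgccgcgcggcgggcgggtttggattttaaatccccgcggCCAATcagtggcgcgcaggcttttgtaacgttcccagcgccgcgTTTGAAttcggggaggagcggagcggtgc
MKI67: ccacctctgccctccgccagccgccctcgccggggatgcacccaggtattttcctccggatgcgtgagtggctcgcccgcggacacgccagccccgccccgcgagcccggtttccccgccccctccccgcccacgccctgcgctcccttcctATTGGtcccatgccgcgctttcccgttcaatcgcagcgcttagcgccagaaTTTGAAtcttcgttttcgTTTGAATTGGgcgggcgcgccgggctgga
GINS2: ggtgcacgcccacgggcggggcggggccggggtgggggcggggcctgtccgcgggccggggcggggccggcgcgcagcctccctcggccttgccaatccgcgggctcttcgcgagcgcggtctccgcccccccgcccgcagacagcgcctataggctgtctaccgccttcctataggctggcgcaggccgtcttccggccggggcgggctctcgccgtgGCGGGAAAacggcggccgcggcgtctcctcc

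DNA repair genes were lower less uniformly. Of 33, 28 were lower and 3 higher at an adjusted p under 0.05 (34.3% and 34.4% of all genes), and 11 were called, all lower (8.74% of all genes, list median log2 fold change -0.69). Homologous recombination genes made up 9 of the 11. EXO1, a nuclease that resects broken ends, went from a range of 44.7 to 48.1 CPM with vehicle to one of 7.12 to 9.01 CPM with CP14 (-2.54), RAD54L had a log2 fold change of -2.21, and FANCD2 of the Fanconi anaemia pathway -1.62. BRCA1 was at 104, 104 and 101 CPM with vehicle and 72.5, 71.2 and 73.4 CPM with CP14, a log2 fold change of -0.52 (SE 0.043). The 3 genes that rose did so by little. They were ATM (log2 fold change 0.28), the kinase that senses double-strand breaks, RAD17 (log2 fold change 0.28) and POLB (log2 fold change 0.22). PARP1, which uses NAD at DNA breaks, had a log2 fold change of -0.59. Of 42 replication-dependent histone genes, whose mRNAs lack a poly(A) tail, only 13 passed the filter, 4 higher and 1 lower, below the shares of all genes, with HIST1H2AC at 12.8 to 14.1 CPM with vehicle and 32.4 to 34.6 CPM with CP14 (log2 fold change 1.28).

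Targets of p53 rose. Of 29, 25 were higher and 2 lower at an adjusted p under 0.05, and 13 were called, all higher, where 34.4% of all genes were higher and 9.22% called higher (median log2 fold change 0.92). CDKN1A, the cyclin-dependent kinase inhibitor p21, was at 108, 103 and 104 CPM with vehicle and 419.5, 455 and 451 CPM with CP14, 4.19-fold higher (log2 fold change 2.07, SE 0.038, adjusted p = 1.46e-20). GADD45A, which acts in growth arrest, went from 12.3, 15.5 and 11.4 to 117, 139 and 136 CPM (log2 fold change 3.32). SESN2, a stress-induced inhibitor of mTORC1 that is also an ATF4 target, went from 14.5, 16.1 and 17.2 to 118, 126 and 132 CPM (log2 fold change 2.97). All 9 apoptosis genes of the list were higher, among them BBC3 (PUMA) at 16.9 to 18.6 CPM with vehicle and 56.3 to 59.9 CPM with CP14 (log2 fold change 1.73). MDM2, the ubiquitin ligase that limits p53, rose by less, from 166, 162 and 163 to 273, 294 and 280.2 CPM, a log2 fold change of 0.78 (SE 0.039). The 2 targets that fell were CCNG1 (log2 fold change -0.47) and PLK2 (log2 fold change -0.13).

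Among G1 regulators, 4 of 13 were higher and 7 lower, beside 34.4% and 34.3% of all genes tested. Of these, 3 and 2 were called, beside 9.22% and 8.74% of all genes. MYC rose from 106, 108 and 109 to 238, 284 and 285 CPM (log2 fold change 1.31, SE 0.05), while CCND3 went from a range of 75.1 to 80.5 CPM with vehicle to one of 19.0 to 21.7 CPM with CP14 (log2 fold change -1.98) and the inhibitor gene CDKN2C from a range of 20.8 to 21.9 CPM with vehicle to one of 3.76 to 4.13 CPM with CP14 (log2 fold change -2.46). CCND1 was at 494, 488 and 494 CPM with vehicle and 449, 496 and 503 CPM with CP14 (adjusted p = 0.454), and the groups overlapped. Of 20 apoptosis regulators, 13 were higher and 4 lower, and 6 were called, all higher (9.22% of all genes). They included anti-apoptotic MCL1, at 292, 297 and 296 CPM with vehicle and 919, 933 and 896 CPM with CP14 (log2 fold change 1.63, SE 0.033), and pro-apoptotic HRK (log2 fold change 2.21), BIK (log2 fold change 1.35) and BAK1 (log2 fold change 1.06). The 4 that fell were CASP9 (log2 fold change -0.79), APAF1 (log2 fold change -0.35), BID (log2 fold change -0.25) and BAD (log2 fold change -0.18).

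The ATF4 stress genes were the list with the largest median rise among those with over 20 tested genes. Of 41 tested, 37 were higher and 3 lower at an adjusted p under 0.05, and 21 were called, all higher, against 34.4% higher and 9.22% called higher of all genes (median log2 fold change 1.01). ATF4 was at 264, 288 and 293 CPM with vehicle and 505, 470.4 and 497 CPM with CP14 (log2 fold change 0.79, SE 0.039). DDIT3 (CHOP) was at 8.11, 8.00 and 6.74 CPM and 87.1, 95.0 and 95.5 CPM, 12.1-fold higher (log2 fold change 3.60, SE 0.081, adjusted p = 2.68e-19). ATF3, a further stress-induced factor, went from 11.1, 11.2 and 11.9 to 121, 139 and 136 CPM (log2 fold change 3.53). Vehicle and CP14 libraries of these 3 genes did not overlap. All 8 tested genes of feedback and effectors were higher. TRIB3, which restrains ATF4 activity, went from 64.5, 69.1 and 66.1 to 405, 390.1 and 411 CPM (log2 fold change 2.59). PPP1R15A, which brings a phosphatase to eIF2α, went from 80.1, 76.1 and 75.8 to 609, 732 and 719.6 CPM (log2 fold change 3.14). The secreted factor gene STC2 had a log2 fold change of 3.45. All 8 aminoacyl-tRNA synthetase genes were higher, with AARS at 282 to 294 CPM with vehicle and 541 to 574 CPM with CP14 (log2 fold change 0.95), and 9 of 11 amino acid synthesis genes, with ASNS (asparagine synthetase) at 111 to 116 CPM with vehicle and 234 to 269 CPM with CP14 (log2 fold change 1.11). The 3 that fell were CTH (log2 fold change -0.93), ALDH18A1 (log2 fold change -0.38) and the amino acid transporter gene SLC38A2 (log2 fold change -0.37).

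The ATF4 element (TGATGNAA, either strand) was in 1.68% of all promoters, in 2.99% of those of called rises, in 2.35% of those of called falls and in 9 of the 35 ATF4 stress genes with a promoter (25.7%). The 250 bases before the start are printed for the called members with the largest rises that held it, ATF3 (chr1:212565157-212565406, plus strand) and CHAC1 (chr15:40953221-40953470, plus strand), with the match in capitals. CHAC1, which degrades glutathione, was at 7.66, 10.2 and 9.85 CPM with vehicle and 32.2, 26.1 and 30.5 CPM with CP14 (log2 fold change 1.67).
ATF3: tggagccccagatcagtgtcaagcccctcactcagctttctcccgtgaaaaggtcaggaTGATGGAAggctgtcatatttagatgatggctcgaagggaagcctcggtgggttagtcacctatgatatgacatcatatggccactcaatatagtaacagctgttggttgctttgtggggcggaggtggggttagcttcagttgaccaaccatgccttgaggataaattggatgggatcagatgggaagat
CHAC1: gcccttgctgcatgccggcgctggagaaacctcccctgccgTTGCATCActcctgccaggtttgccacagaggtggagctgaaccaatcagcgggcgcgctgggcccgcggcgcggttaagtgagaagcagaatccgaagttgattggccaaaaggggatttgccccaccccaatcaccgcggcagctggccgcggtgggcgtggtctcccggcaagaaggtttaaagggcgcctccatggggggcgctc

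Endoplasmic reticulum chaperone genes and the rest of the unfolded protein response did not move one way. Of 22, 7 were higher and 11 lower, beside 34.4% and 34.3% of all genes tested (median log2 fold change -0.08). Of the list 5 were called, 1 higher and 4 lower, beside 9.22% and 8.74% of all genes. HSPA5 (BiP), the main lumenal chaperone, went from 1009.6, 992 and 1016 to 1906, 1719 and 1732 CPM (log2 fold change 0.82, SE 0.037), and ERN1, the sensor IRE1α, from a range of 37.3 to 39.7 CPM with vehicle to one of 120.0 to 128 CPM with CP14 (log2 fold change 1.68). The lectin chaperone CALR went the other way, from 731, 736 and 740.2 to 259, 237 and 250.1 CPM (log2 fold change -1.57, SE 0.034), as did PDIA4 (log2 fold change -1.55) and XBP1 (log2 fold change -0.89). Of 14 cytosolic and mitochondrial heat shock genes, 11 were lower and 2 higher, beside the same shares of all genes (median -0.70). HSPA1A was at 229 to 234 CPM with vehicle and 89.4 to 136 CPM with CP14 (log2 fold change -1.02), HSPE1 at 178 to 182 CPM with vehicle and 72.5 to 84.9 CPM with CP14 (log2 fold change -1.20), and the mitochondrial chaperone HSPA9 rose, from a range of 683 to 706 CPM with vehicle to one of 1032 to 1072 CPM with CP14 (log2 fold change 0.58).

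Redox genes controlled by NRF2 were mostly lower. Of 31, 23 were lower and 6 higher at an adjusted p under 0.05, and 11 were called lower against 2 called higher, where 34.3% of all genes were lower, 8.74% called lower and 9.22% called higher (median log2 fold change -0.56). NQO1 (ENSG00000181019.13, chromosome 16 from 69706996 to 69726668), the quinone reductase, was at 1347, 1382 and 1362 CPM with vehicle and 612, 599 and 636 CPM with CP14, a log2 fold change of -1.15 (SE 0.03) with an adjusted p of 3.10e-18. The lowest vehicle library lay well above the highest CP14 library. AKR1C3, an aldo-keto reductase that also reduces quinones, went from a range of 651 to 656 CPM with vehicle to one of 215 to 271 CPM with CP14 (log2 fold change -1.44), whereas NQO2 rose from 32.8, 34.3 and 36.1 to 47.7, 46.1 and 50.0 CPM (log2 fold change 0.47, SE 0.055). The largest fall was in GPX2, a glutathione peroxidase, at 247, 244 and 262 CPM with vehicle and 17.4, 9.01 and 15.4 CPM with CP14, 18.1-fold lower. GCLC, which starts glutathione synthesis, had a log2 fold change of -0.56 and GSR, which regenerates glutathione, -1.31. All 5 NADPH supply genes were lower, with TKT (transketolase) at 1220.2 to 1287 CPM with vehicle and 459.9 to 555 CPM with CP14 (log2 fold change -1.33). The thioredoxin gene TXN changed little (log2 fold change -0.21). The antioxidant response element (TGACNNNGC, either strand) was in 15.1% of all promoters, in 15.2% of those of called rises and of called falls, and in 6 of the 22 redox genes with a promoter (27.3%). The 2 called rises were HMOX1, heme oxygenase, at 59.9, 56.7 and 58.0 CPM with vehicle and 146, 175 and 193 CPM with CP14 (log2 fold change 1.55, SE 0.073), and SQSTM1 (p62) at 809 to 818 CPM with vehicle and 1996 to 2101 CPM with CP14 (log2 fold change 1.31).

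Of 11 genes of iron handling and lipid peroxide control, 6 were higher and 3 lower, beside 34.4% and 34.3% of all genes tested. The ferritin heavy chain FTH1 rose from 2819, 2796 and 2862 to 4046, 3894 and 4054 CPM (log2 fold change 0.49, SE 0.031), while the light chain FTL was at 5847, 5904 and 5975 CPM with vehicle and 5829, 5547 and 5819 CPM with CP14 (adjusted p = 0.252). GPX4, which reduces lipid peroxides, had a log2 fold change of 0.17 and ACSL4, which loads polyunsaturated lipids, 0.47. Metallothionein gene MT2A rose from a range of 11.4 to 12.9 CPM with vehicle to one of 34.6 to 41.0 CPM with CP14 (log2 fold change 1.62). Of 8 genes of the aryl hydrocarbon receptor pathway, 5 were higher and 3 lower, beside the same shares of all genes. The receptor's target CYP1A1 was low, at 0.199, 0.488 and 0.143 CPM with vehicle and 1.67, 1.04 and 1.2 CPM with CP14 (log2 fold change 2.20, SE 0.41). TIPARP, which represses the receptor, rose from a range of 41.8 to 44.9 CPM with vehicle to one of 124 to 130.3 CPM with CP14 (log2 fold change 1.55). ALDH3A1, an aldehyde dehydrogenase gene of the same list, went from 437, 442 and 424 to 86.3, 58.0 and 74.2 CPM (log2 fold change -2.58, SE 0.076).

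Immediate early genes changed in both directions. Of 23 tested, 18 were higher and 5 lower (34.4% and 34.3% of all genes), and 12 were called, 9 higher and 3 lower (9.22% and 8.74% of all genes, list median log2 fold change 0.78). Among AP-1 subunits, JUN went from 26.5, 25.8 and 27.2 to 159.6, 192 and 192 CPM (log2 fold change 2.77, SE 0.065) and FOSL1 from 14.4, 12.4 and 15.3 to 151, 173 and 173 CPM (log2 fold change 3.55, SE 0.078). FOS went from 66.3, 75.8 and 76.3 to 33.2, 28.6 and 29.3 CPM (log2 fold change -1.27, SE 0.074), the opposite direction. The zinc finger gene KLF6 rose from a range of 45.6 to 49.2 CPM with vehicle to one of 245 to 309.6 CPM with CP14 (log2 fold change 2.60), and the feedback phosphatase gene DUSP5 from 34.7, 33.3 and 35.3 to 322, 298 and 307 CPM (log2 fold change 3.16). The nuclear receptor genes of the NR4A family were lower. NR4A1 went from 151, 157 and 158 to 44.5, 44.0 and 42.5 CPM (log2 fold change -1.84) and NR4A2 from 22.9, 23.5 and 22.9 to 2.46, 3.07 and 2.71 CPM (log2 fold change -3.07). For NR4A3 the log2 fold change was -0.52, with an adjusted p of 0.00443. The AP-1 element (TGANTCA) was in 4.65% of all promoters, in 8.43% of those of called rises and in 4.49% of those of called falls, and in 1 of the 18 immediate early genes with a promoter.

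Of 20 tested NF-κB and cytokine genes, 16 were higher and 1 was lower, and 10 were called higher, where 34.4% of all genes were higher and 9.22% called higher (list median log2 fold change 0.96). CXCL8 (interleukin-8) went from 17.3, 19.0 and 20.6 to 94.1, 70.1 and 77.3 CPM (log2 fold change 2.08, SE 0.087), CXCL2 from 2.54, 2.73 and 4.59 to 18.2, 18.6 and 18.5 CPM (log2 fold change 2.48) and IL11 from 8.46, 10.0 and 10.3 to 57.6, 65.7 and 64.2 CPM (log2 fold change 2.69). NFKBIA, the feedback inhibitor, rose from a range of 46.1 to 52.3 CPM with vehicle to one of 83.3 to 84.8 CPM with CP14 (log2 fold change 0.74). The gene that fell was PTGS2 (cyclooxygenase-2), at 943, 932 and 982 CPM with vehicle and 220.3, 172 and 194 CPM with CP14 (log2 fold change -2.29, SE 0.067). IL6 was also among the called rises, on at most 6 counts per library, with no count with vehicle and 0, 0.247 and 0.307 CPM with CP14. CCL2 did not pass (adjusted p = 0.361), and TNF, IL1A, IL1B and CSF2 were below the filter.

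Interferon-stimulated genes changed in shares near those of all genes. Of 37 tested of 47, 14 were higher (37.8%) and 11 lower (29.7%), beside 34.4% and 34.3% over all genes tested, 12 did not pass, and 4 were called, 2 each way, beside 18.0% of all genes (median log2 fold change 0.04). ISG15 (ENSG00000187608.9, chromosome 1 from 1001138 to 1014540), the modifier that USP18 removes, was at 1.29, 1.41 and 1.77 CPM with vehicle and 4.08, 3.81 and 4.81 CPM with CP14, a log2 fold change of 1.49 (SE 0.19) with an adjusted p of 6.37e-07. IFIH1, a sensor of viral RNA, was the other called rise, at 0.732 to 0.956 CPM with vehicle and 1.77 to 2.57 CPM with CP14 (log2 fold change 1.33). The called falls were IFIT1, a translation inhibitor, at 3.83, 5.03 and 3.49 CPM with vehicle and 1.28, 0.643 and 0.768 CPM with CP14 (log2 fold change -2.19), and OAS1, which makes the activator of RNase L, at 40.4, 41.9 and 39.4 CPM with vehicle and 10.5, 8.41 and 10.5 CPM with CP14 (log2 fold change -2.05). The transcription factor gene IRF7 went from a range of 2.15 to 2.58 CPM with vehicle to one of 4.26 to 5.02 CPM with CP14 (log2 fold change 0.96). Of 15 MHC class I genes, 7 were higher and 3 lower, beside the same 34.4% and 34.3% of all genes, with HLA-B at 8.71, 9.90 and 7.70 CPM with vehicle and 20.8, 21.2 and 20.2 CPM with CP14 (1.24), the peptide transporter gene TAP1 at 0.92 on the log2 scale, and B2M at -0.24.

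Genes that the study measured by PCR, which it chose on samples of this series, are given for completeness and are not independent evidence. IL31RA, a cytokine receptor gene, went from 0.597, 1.12 and 1.20 to 11.1, 13.5 and 13.3 CPM (log2 fold change 3.68, SE 0.20), and OTUD7A, a deubiquitinase gene, from 0.299, 0.146 and 0.430 to 0.786, 1.44 and 1.02 CPM (log2 fold change 1.86). DCC, a netrin receptor gene, went from 1.29, 1.71 and 1.20 CPM to the limit of detection, at least 9.34-fold lower. USP41, a near copy of USP18 among which reads can be divided, went from a range of 25.0 to 25.9 CPM with vehicle to one of 38.0 to 40.2 CPM with CP14 (log2 fold change 0.63). ENTPD1 was at 1.24, 1.51 and 1.00 CPM with vehicle and 1.67, 1.68 and 2.10 CPM with CP14 (adjusted p = 0.116), and KLK2 at 0.149, 0.683 and 0.239 CPM with vehicle and 0.884, 0.594 and 0.358 CPM with CP14 (adjusted p = 0.274). FGF13, a fibroblast growth factor family gene, was below the filter, with 3, 8 and 7 counts with vehicle and 15, 7 and 12 counts with CP14.

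The listed genes of cholesterol synthesis and uptake and of secreted plasma proteins were mostly lower. Of 24 cholesterol synthesis and uptake genes, 23 were lower and none was higher, and 16 were called, where 34.3% of all genes were lower and 8.74% called lower (list median log2 fold change -1.12). HMGCS1, an early enzyme, went from 193, 202 and 198 to 60.2, 65.7 and 65.6 CPM (log2 fold change -1.64, SE 0.045), and INSIG1, which holds back the activation of sterol-regulated transcription factors, from 55.9, 57.9 and 58.9 to 13.3, 10.4 and 11.4 CPM (log2 fold change -2.30, SE 0.072). Of 18 hepatocyte-type secreted and endodermal genes, which A549 cells express in part, 14 were lower and 1 higher, and 9 were called lower, beside the same shares (list median -1.37). FGA and FGG, the other fibrinogen chains, had log2 fold changes of -3.83 and -2.80, and APOH of -3.12. The gene that rose was GATA6, a transcription factor of endodermal tissue, at 4.63, 3.51 and 3.73 CPM with vehicle and 12.4, 12.3 and 15.8 CPM with CP14 (log2 fold change 1.76). Of 28 hypoxia and glycolysis genes, 17 were lower and 5 higher, beside 34.3% and 34.4% of all genes tested. CA9, a carbonic anhydrase induced by hypoxia, was at 7.76, 5.81 and 6.84 CPM with vehicle and 0.442, 0.198 and 0.154 CPM with CP14, LDHA at 2026 to 2067 CPM with vehicle and 758 to 798 CPM with CP14 (log2 fold change -1.40), and hexokinase 2 (HK2) rose from 5.62, 4.49 and 5.26 to 28.1, 33.3 and 26.2 CPM (log2 fold change 2.5). The glucose transporter gene SLC2A1 was at 69.1, 67.8 and 70.0 CPM with vehicle and 69.2, 68.4 and 67.4 CPM with CP14 (adjusted p = 0.684), and the groups overlapped.

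Of 24 genes of epithelial-mesenchymal state and TGF-β signalling, 15 were higher and 8 lower (34.4% and 34.3% of all genes), and 13 were called, 9 higher and 4 lower (9.22% and 8.74% of all genes, list median log2 fold change 0.76). VIM (vimentin) rose from a range of 716 to 733 CPM with vehicle to one of 1278 to 1314 CPM with CP14 (log2 fold change 0.82), and the repressor gene ZEB2 rose from the limit of detection to 1.87 to 2.76 CPM, at least 16.2-fold higher. In the opposite direction were FN1 (fibronectin, -2.06), THBS1 (log2 fold change -1.81) and CCN2 (log2 fold change -1.40), which are mesenchymal or TGF-β genes, and the epithelial cadherin gene CDH1, at 59.6, 58.0 and 65.6 CPM with vehicle and 30.1, 21.3 and 21.2 CPM with CP14 (log2 fold change -1.34). Most TGF-β targets rose, with 7 of 11 higher (4 called) and 4 lower (2 called), a median log2 fold change of 0.38. Of 8 mesenchymal genes tested, 5 were higher (2 called) and 2 lower (1 called). The 5 epithelial members of the list did not move together, since 3 were higher, all called, and 2 lower (median log2 fold change 1.17). The splicing factor gene ESRP1 went from 1.59, 1.17 and 1.77 to 5.89, 5.25 and 5.17 CPM (log2 fold change 1.84, SE 0.25), the junction genes OCLN and CLDN1 had log2 fold changes of 1.23 and 1.17, and EPCAM, the other that was lower, -0.85. Keratins also divided, with KRT8 at 3691 to 3805 CPM with vehicle and 1264 to 1394 CPM with CP14 (log2 fold change -1.49) and KRT7 at 1488 to 1532 CPM with vehicle and 3362 to 3418 CPM with CP14 (log2 fold change 1.16). Among the markers of other cell types, CD68, a lysosomal gene also used as a macrophage marker, rose from a range of 31.9 to 35.3 CPM with vehicle to one of 94.6 to 99.7 CPM with CP14 (log2 fold change 1.56), COL3A1 went from a range of 3.22 to 3.38 CPM with vehicle to one of 0.256 to 0.297 CPM with CP14 (log2 fold change -3.53) and COL1A1 did not pass (adjusted p = 0.106).

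Ribosomal protein genes rose by small amounts. Of 48, 47 were higher and none was lower at an adjusted p under 0.05, beside 34.4% and 34.3% of all genes. None was called, where 9.22% of all genes were called higher. The log2 fold changes ran from 0.084 to 0.81 with a median of 0.42. RPL3 of the large subunit went from 1497, 1498 and 1467 to 1973, 1868 and 1874 CPM (log2 fold change 0.35, SE 0.032), and RPS12 of the small subunit, the largest rise, from 453, 477 and 457 to 807, 810.1 and 825 CPM (log2 fold change 0.81, SE 0.039). The 17 nucleolar genes of ribosome biogenesis were 4 higher and 7 lower, beside 34.4% and 34.3% of all genes tested, with NCL (nucleolin) at -0.30 and RRP12 at 0.88 on the log2 scale. Of the 13 mRNAs encoded in mitochondria, 11 were lower and 1 higher, and 7 were called lower, where 34.3% of all genes were lower and 8.74% called lower (list median -1.06). MT-CO2 of complex IV went from 3722, 3432 and 3104 to 894, 786 and 827 CPM (log2 fold change -2.04, SE 0.052), MT-CYB of complex III from a range of 1078 to 1322 CPM with vehicle to one of 463 to 493 CPM with CP14 (log2 fold change -1.33), and MT-ND1 of complex I rose, from 967, 896 and 810.3 to 1110.2, 1003 and 1024 CPM (log2 fold change 0.22, SE 0.051). The mRNAs summed to 21200 to 25800 CPM with vehicle and 10500 to 11500 CPM with CP14. The ribosomal RNAs of the same genome, looked at after the values were seen, went the other way, with MT-RNR2 at 6012, 5634 and 4951 CPM with vehicle and 13127, 14777 and 14368 CPM with CP14 (log2 fold change 1.34, SE 0.068) and MT-RNR1 at a log2 fold change of 1.27 (SE 0.13). The labels describe poly(A) capture and the methods ribosomal depletion, and the part of either in these ribosomal RNA counts was not tested. Tubulin genes were 7 lower and 3 higher of 11, beside the 34.3% and 34.4% of all genes, with TUBA1B at 2079 to 2112 CPM with vehicle and 817 to 879.9 CPM with CP14 (log2 fold change -1.31) and TUBB2B at 11.0 to 12.1 CPM with vehicle and 26.5 to 27.9 CPM with CP14 (log2 fold change 1.25). None of the 7 tested small RNAs without a poly(A) tail passed.

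**Figure D2:**
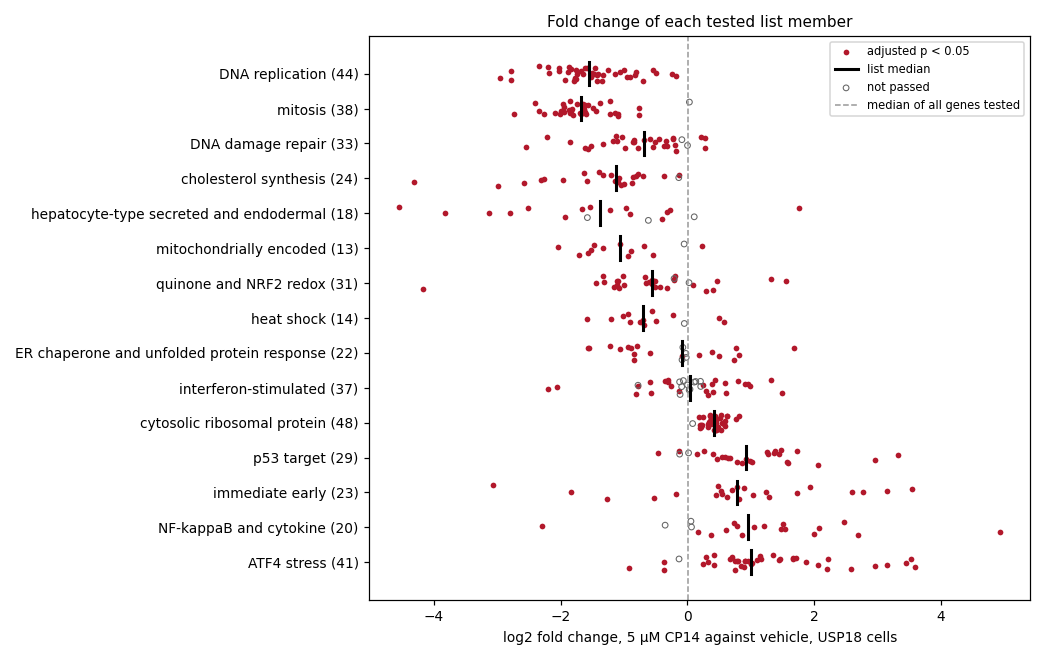
Log2 fold change of 5 µM CP14 against vehicle in USP18 cells (x axis) for each tested member of 15 gene lists (number tested in parentheses); filled points passed an adjusted p under 0.05, open points did not, black bars are list medians and the dashed line is the median of all genes tested. DNA replication and mitosis lie to the left, at medians of -1.55 and -1.68, ribosomal proteins at 0.42, and ATF4 stress genes to the right at 1.01.

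The same treatment of empty-vector cells called 2207 genes (13.8%), 1006 higher (6.31%) and 1201 lower (7.53%). Of the 2865 genes called in USP18 cells, 1641 were called the same way in empty-vector cells and 5 the opposite way. The difference between the responses was tested as an interaction, which reached an adjusted p under 0.05 for 4410 genes (27.7%, 13.3% above 0 and 14.4% below) and was called (log2 size over 1 as well) for 447 (2.80%), 260 higher (1.63%) and 187 lower (1.17%). The vehicle levels of the 2 populations are part of this contrast. With vehicle, 1644 of all genes tested (10.3%) were called different between USP18 and empty-vector cells, and so were 212 of the 447 (47.4%).

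None of the 44 replication and none of the 38 mitosis genes had a called interaction, beside 2.80% of all genes. At an adjusted p under 0.05 alone, 16 replication genes (7 above 0 and 9 below) and 14 mitosis genes (9 above 0 and 5 below) had one, beside 27.7% of all genes. The medians of the lists in empty-vector cells were -1.49 and -1.73. Among the ATF4 stress genes 4 of 41 had a called interaction, 3 above 0 and 1 below, beside 2.80% of all genes. Of the 41, 29 passed an adjusted p under 0.05 for the interaction, 10 above 0 and 19 below, beside 27.7% of all genes. Most of these 29 therefore lay opposite to DDIT3 and PPP1R15A below. The list median of the CP14 response was 1.01 with the USP18 vector and 1.23 with the empty one. DDIT3 was at 5.93, 7.91 and 6.91 CPM (vehicle) and 38.8, 35.6 and 33.7 CPM (CP14) in empty-vector cells, against the 6.74 to 8.11 CPM with vehicle and 87.1 to 95.5 CPM with CP14 of USP18 cells, an interaction of 1.21 (SE 0.13) with an adjusted p of 5.61e-07. The vehicle levels of DDIT3 were close (adjusted p = 0.247 for their difference), and so were those of PPP1R15A, whose interaction was 1.07 (SE 0.081). CHAC1 had a smaller rise in USP18 cells (log2 interaction -1.14, SE 0.16), from a higher vehicle level. ATF4 itself had log2 fold changes of 0.79 and 0.83 in the populations.

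Of 23 tested immediate early genes, 4 had a called interaction, beside 2.80% of all genes. They were FOSB, KLF6, DUSP5 and JUN, and each interaction was above 0. At an adjusted p under 0.05 alone, 13 of the list were above 0 and 6 below, beside 13.3% and 14.4% of all genes. KLF6 went from 61.4, 65.0 and 59.4 to 127, 124 and 120.2 CPM in empty-vector cells, an interaction of 1.61 (SE 0.10, adjusted p = 2.43e-10), and DUSP5 from a range of 66.3 to 70.1 CPM with vehicle to one of 184 to 197 CPM with CP14 (log2 interaction 1.69). For both genes every vehicle library was lower in USP18 than in empty-vector cells, and every CP14 library was higher. JUN went from a range of 63.3 to 66.3 CPM with vehicle to one of 135 to 148 CPM with CP14 in empty-vector cells, so its interaction of 1.62 (SE 0.089) went with a vehicle level that was lower in USP18 cells (-1.27 on the log2 scale, adjusted p = 2.01e-12). The same held for CDKN1A, which was at 284, 274 and 281 CPM (vehicle) and 694, 709 and 682 CPM (CP14) in empty-vector cells, with an interaction of 0.76 (SE 0.051) and a CP14 level above that of USP18 cells. HMOX1 was at 159 to 184 CPM with vehicle and 252 to 259 CPM with CP14 in empty-vector cells (log2 interaction 1.01). Its larger fold in USP18 cells came with lower levels at either treatment.

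Of the redox list, 22 of 31 genes had an interaction with an adjusted p under 0.05 (2 of them called), beside 27.7% and 2.80% of all genes, and 20 of these were lower in USP18 cells relative to the response of empty-vector cells. NQO1 was at 1754, 1749.6 and 1769 CPM (vehicle) and 1184, 1165 and 1202 CPM (CP14) in empty-vector cells, a log2 fold change of -0.58 (SE 0.03) and an interaction of -0.58 (SE 0.043, adjusted p = 3.41e-09). GPX2 had an interaction of -1.49. ALDH3A1 was at 978 to 1026 CPM (vehicle) and 582 to 595 CPM (CP14) in empty-vector cells and fell further in USP18 cells (log2 interaction -1.82, SE 0.10). Of the mRNAs encoded in mitochondria, 12 of 13 had an interaction below 0 with an adjusted p under 0.05, beside 14.4% of all genes, with MT-CO2 at -0.99.

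ISG15 was at 2.31, 1.91 and 2.22 CPM (vehicle) and 2.51, 2.65 and 2.15 CPM (CP14) in empty-vector cells, a log2 fold change of 0.17 (SE 0.20, adjusted p = 0.458), and its interaction was 1.32 (SE 0.28) with an adjusted p of 0.00106. Each vehicle library of ISG15 was lower in USP18 than in empty-vector cells, and each CP14 library was higher. Of the 37 interferon-stimulated genes it was the 1 with a called interaction, a share near the 2.80% of all genes. Some of the largest interactions were in genes that were low with vehicle in empty-vector cells. RASD1, a Ras-related gene, was at 0.112 to 0.516 CPM with vehicle in empty-vector cells and at 14.1 to 16.3 CPM in USP18 cells, where it went to 0.792 to 1.42 CPM (log2 interaction -4.00, SE 0.54). KCNQ3, a potassium channel gene, rose from a range of 0.198 to 0.617 CPM with vehicle to one of 2.90 to 3.48 CPM with CP14 in empty-vector cells and went from a range of 11.7 to 12.9 CPM with vehicle to one of 5.89 to 6.39 CPM with CP14 in USP18 cells (log2 interaction -4.08, SE 0.28). FOXJ1 was at 0.198 to 0.659 CPM with vehicle in empty-vector cells against 6.59 to 7.94 CPM in USP18 cells. SCNN1G was at 0.0561 to 0.188 CPM (vehicle) and 0 to 0.0545 CPM (CP14) in empty-vector cells.

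**Figure D3:**
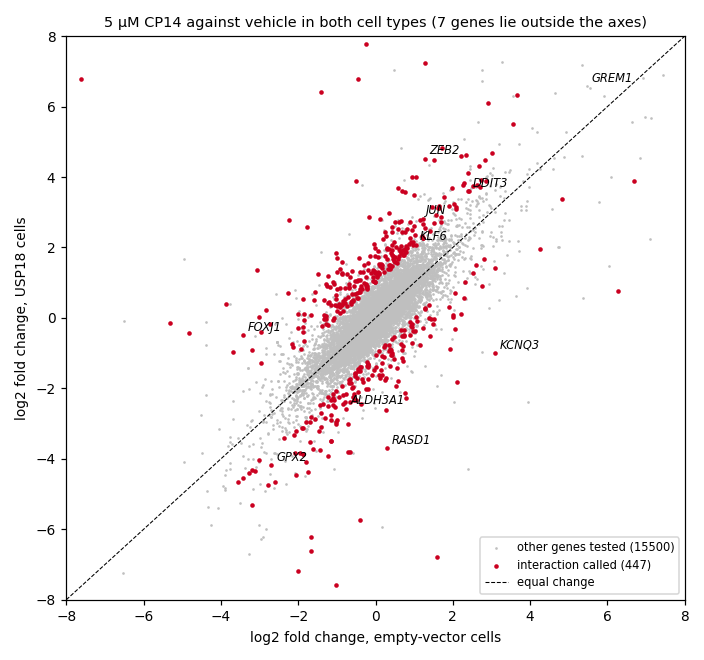
Response to 5 µM CP14 as log2 fold change over vehicle in empty-vector cells (x axis) and USP18 cells (y axis) for the 15947 genes tested; red points are the 447 genes with a called interaction, the dashed line marks equal change and 7 genes lie outside the axes. KLF6, JUN and DDIT3 lie above the line, and ALDH3A1, RASD1, KCNQ3 and GPX2 below it.

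The dose of CP14 in USP18 cells was compared by testing 5 against 2.5 µM directly. Of 15732 genes tested in these 12 libraries, 1894 were called (12.0%), 807 higher (5.13%) and 1087 lower (6.91%) at 5 µM, and 30.4% were higher and 32.4% lower at an adjusted p under 0.05. Against the same vehicle libraries, 319 genes (2.03%) were called at 2.5 µM and 38 (0.242%) at 1 µM. At an adjusted p under 0.05 alone, 15.5% were higher and 14.9% lower at 2.5 µM. DNA replication genes differed between the doses. At 2.5 µM, 6 of 44 were higher, 6 lower and none was called against vehicle, whereas all 44 were lower at 5 than at 2.5 µM, 35 of them called (median log2 difference -1.63). RRM2 was at 264, 273 and 247 CPM at 1 µM, 219.6, 233 and 234 CPM at 2.5 µM and 30.3 to 34.9 CPM at 5 µM, a log2 difference between the higher doses of -2.83 (SE 0.053). Of the mitosis genes, 31 of 38 were already lower at 2.5 µM, none called (median -0.24), and 37 were lower at 5 than at 2.5 µM. MKI67 was at 313, 441 and 470.4 CPM at 2.5 µM, with replicate 1 lowest, and its log2 difference was -2.12 (SE 0.12).

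The stress lists had begun to move at 2.5 µM. Of the ATF4 stress genes, 33 of 41 were higher against vehicle at 2.5 µM (5 called, median 0.43), beside 15.5% of all genes (2.03% called), and 1 at 1 µM, where 4.15% of all genes were higher. TRIB3 was at 71.3, 65.4 and 61.4 CPM at 1 µM and 170.1, 125 and 105 CPM at 2.5 µM, with replicate 1 highest, and at 390.1 to 411 CPM at 5 µM (log2 difference 1.59, SE 0.11 for 5 against 2.5 µM). Of the p53 targets, 21 of 29 were higher at 2.5 µM, where 15.5% of all genes were, and none was called, where 2.03% were. Cholesterol synthesis genes were lower at 2.5 µM in 22 of 24 (median -0.40), beside 14.9% of all genes. Of 13 mRNAs encoded in mitochondria, 7 were higher and none lower at 2.5 µM against vehicle, beside 15.5% and 14.9% of all genes. None of these was called (median 0.29), and the sum of the 13 ran from 21200 to 25800 CPM among the vehicle libraries themselves. All 13 were lower at 5 than at 2.5 µM, 11 of them called. Immediate early genes were 6 higher and 8 lower of 22 at 2.5 µM, with the NR4A family among the falls. NR4A1 was at 59.1, 59.5 and 74.7 CPM at 2.5 µM (log2 fold change -1.27 against vehicle) and NR4A3 at 2.17, 2.62 and 1.84 CPM (log2 fold change -2.07), below its level at 5 µM. CYP1A1 was at 2.5, 1.40 and 1.84 CPM at 2.5 µM and did not pass between 2.5 and 5 µM (adjusted p = 0.219). Of the interferon-stimulated genes 17 of 37 were higher and 1 was lower at 2.5 µM, where 15.5% and 14.9% of all genes were, and 9 were higher and 16 lower at 5 than at 2.5 µM, where 30.4% and 32.4% of all genes were. The largest called differences between the doses were CCBE1 (log2 difference 3.48), AC016831.1 (log2 difference 3.16) and AL390719.1 (log2 difference 3.13) upward, and SCNN1G, CLDN2 (log2 difference -4.22) and FGB (log2 difference -3.67) downward, where SCNN1G had no count at 5 µM and 4.33, 6.88 and 8.86 CPM at 2.5 µM.

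**Figure D4:**
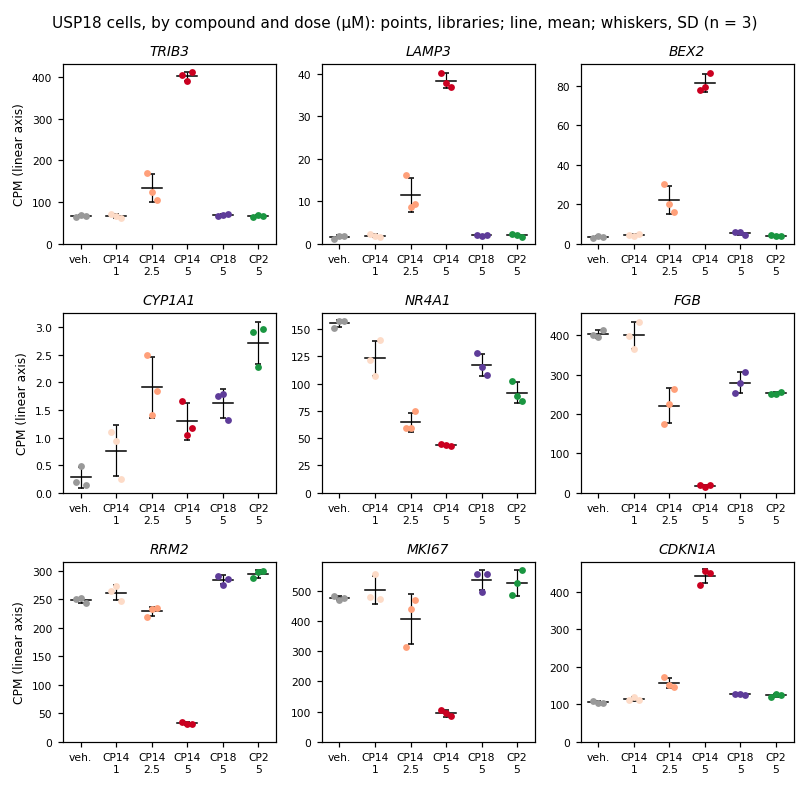
CPM (linear axis from 0) of 9 genes in USP18 cells by compound and dose in µM; points are libraries, the line is the mean and whiskers are the SD of 3. TRIB3, LAMP3, BEX2 and CDKN1A stand highest and FGB, RRM2 and MKI67 lowest at 5 µM CP14, NR4A1 is lowest there with intermediate values at 2.5 µM CP14, and CYP1A1 overlaps between 5 µM CP14 and 5 µM CP18.

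At the same dose and time, 5 µM CP14 was compared with 2 other coded compounds, in 2 pairs, with p-values adjusted over the 15646 genes tested. CP14 differed from CP18 in 2644 called genes (16.9%), 1374 higher (8.78%) and 1270 lower (8.12%), and from CP2 in 2725 (17.4%), 1474 higher (9.42%) and 1251 lower (8.00%). At an adjusted p under 0.05 alone, 35.5% of genes were higher and 34.1% lower than with CP18, and 35.9% and 34.3% than with CP2. Against the vehicle libraries that all 3 share, CP18 called 81 genes (0.518%) and CP2 127 (0.812%), and at an adjusted p under 0.05 alone 8.26% of genes were higher and 8.56% lower with CP18, and 10.3% each way with CP2. All 44 DNA replication genes were lower with CP14 than with CP18 and than with CP2, and 38 and 37 of them were called. Against vehicle, 28 of the 44 were higher and none lower with CP18, and 28 higher and none lower with CP2, none called. RRM2 was at 291, 275 and 285 CPM with CP18 and 286, 298 and 299 CPM with CP2, against 30.3 to 34.9 CPM with CP14, log2 differences of -3.14 (SE 0.044) and -3.19 (SE 0.044). CDKN1A was at 124 to 128 CPM with CP18 and 119 to 128 CPM with CP2, differences of 1.81 and 1.84.

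Of the ATF4 stress genes, 38 of 41 were higher with CP14 than with CP18 and 37 of 41 than with CP2, beside 35.5% and 35.9% of all genes. In each comparison 18 were called higher, beside 8.78% and 9.42% of all genes. TRIB3 was at 67.0, 69.1 and 70.5 CPM with CP18 and 63.0, 69.7 and 66.3 CPM with CP2, a log2 difference of 2.55 (SE 0.039) and 2.61 (SE 0.039). NQO1 was at 1466, 1501 and 1492 CPM with CP18 and 1469.9, 1536 and 1535 CPM with CP2, and CP14 was lower than both (log2 difference -1.27, SE 0.029 and -1.29 (SE 0.029)). Heat shock genes separated the compounds too, with 11 of 13 lower with CP14 than with either, beside 34.1% and 34.3% of all genes. Against vehicle 11 were higher with CP18 (median 0.24) and 12 with CP2 (median 0.29), beside 8.26% and 10.3% of all genes. With neither was any of the list lower than with vehicle. HSPA1A was at 347 to 390.2 CPM with CP18 and 373 to 389.6 CPM with CP2 against 89.4 to 136 CPM with CP14. ISG15 was at 2.07, 0.949 and 1.78 CPM with CP18 and 1.58, 1.14 and 1.64 CPM with CP2, differences of 1.39 (SE 0.24, adjusted p = 3.24e-05) and 1.54 (SE 0.24, adjusted p = 9.56e-06).

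For some genes CP18 and CP2 lay on the same side of vehicle as CP14, with the vehicle libraries shared. GREM1 was at 4.29, 6.43 and 5.04 CPM with CP18 and 4.03, 7.35 and 4.97 CPM with CP2, and at 75.5 to 93.4 CPM with CP14. Its log2 differences between CP14 and the others were 4.05 (SE 0.13) and 4.00 (SE 0.13), and its log2 fold changes of CP18 and CP2 against vehicle 2.53 and 2.59. NR4A1 was at 108 to 128 CPM with CP18 and 83.8 to 102 CPM with CP2, and CP14 was lower than both (log2 differences -1.42 and -1.07). CTH, which makes cysteine, was at 6.96, 6.91 and 5.82 CPM with CP18, 6.20, 7.45 and 5.99 CPM with CP2 and 7.32, 6.73 and 6.86 CPM with CP14, against 13.2, 13.2 and 13.2 CPM with vehicle. The log2 difference of CTH between CP14 and CP18 was 0.09 (95% interval -0.14 to 0.32, adjusted p = 0.476), and between CP14 and CP2 0.10 (95% interval -0.13 to 0.32, adjusted p = 0.444). For XBP1, which encodes a factor of the unfolded protein response, CP14 lay below CP18 (-0.17, adjusted p = 0.0123), and its log2 difference from CP2 was -0.029 (95% interval -0.15 to 0.09, adjusted p = 0.665). CYP1A1 was at 1.75, 1.79 and 1.31 CPM with CP18 and 2.91, 2.28 and 2.97 CPM with CP2. Its log2 difference from CP18 was -0.32 (95% interval -0.93 to 0.30, adjusted p = 0.347) and from CP2 -1.06 (SE 0.28, adjusted p = 0.00207), with CP14 at 1.67, 1.04 and 1.2 CPM. 

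Among the largest called differences from the other compounds, OLAH was higher with CP14 (log2 difference 4.49 from CP18 and 5.66 from CP2). So were TNC (log2 difference 4.29 from CP18, the matrix protein tenascin C), AC034213.1 and TMEM265. Lower with CP14 were SCNN1G, CLDN2 (log2 difference -4.28 and -4.16), VIL1 (log2 difference -4.18 from CP18) and FGB (log2 difference -3.86 from CP2). AC034213.1 was at 0.0525 to 0.323 CPM with CP18 and 0 to 0.285 CPM with CP2, and TMEM265 at 0 to 0.205 CPM with CP2. SCNN1G was at 9.73, 11.4 and 11.6 CPM with CP18 and 8.11, 8.02 and 6.97 CPM with CP2.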

How the data were processed

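RNA from A549 cells was sequenced in 54 libraries of 18 groups, and 12 libraries entered each fit here. Per the labels, reads were demultiplexed with bcl2fastq, trimmed with Cutadapt 1.18, aligned with STAR 2.7.0f to hg38 and counted with RSEM 1.3.1 (the methods name a later RSEM release). The labels describe poly(A) capture and the methods a ribosomal depletion kit, which bears on RNAs without a poly(A) tail. The mapping annotation was human and the one named for counting was a mouse release, although the deposited identifiers are human. The deposited table holds expected counts, of which 94% were whole and the rest were rounded here. All columns were mapped to samples by title (0 left over).

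Genes were filtered with filterByExpr (minimum count 10, total 15), scaled by TMM and tested with edgeR 4.0.16 (R 4.3.3) by the quasi-likelihood test with Benjamini-Hochberg adjustment. The fits compared treatment by vector, dose, and compound. Calls required an adjusted p under 0.05 together with a change of more than 1 on the log2 scale, up or down. SE is the log2 fold change divided by the square root of the F statistic. Fold bounds used 3 counts per library, and intervals cover 95%. Alternatives were other scaling, DESeq2 1.42.0, other filters, other sets of libraries, a replicate block and leaving out each library. The scripts were tested on simulated data. Named genes were USP18, ISG15 and the genes tested by PCR, the 10 largest called rises and falls with separate groups and a mean count of at least 50, up to 4 members per list and direction, the first member of each role, and 3 per direction in the other contrasts. Members and lists were chosen with earlier results of these data known. The comparison between compounds used CP18 and CP2 at 5 µM, and the remaining groups entered only the fit of all 54 libraries, the CPM scaling and the library totals. A few genes that the rule names are not reported here.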

Additional observations from a re-analysis of the deposited data

Results flagged for a closer look

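By the interaction in edgeR's quasi-likelihood test, the response to 5 µM CP14 differed between USP18 and empty-vector cells in 447 genes. Of these, 38 were selected by the rule for named genes. FOSB, mentioned above, also had a called interaction but was not selected by that rule. The values below are the interactions of the 38 genes on the log2 scale, above 0 where the response lay higher in USP18 cells.

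Among stress and signalling genes the interaction was 1.21 for DDIT3, 1.07 for PPP1R15A, 1.62 for JUN, 1.61 for KLF6, 1.69 for DUSP5, 1.09 for MYC, 1.08 for CXCL2, 1.01 for HMOX1, 1.32 for ISG15, 1.71 for IL31RA and 1.67 for BCL2A1. CHAC1 lay the other way at -1.14. Among redox and xenobiotic genes it was -1.82 for ALDH3A1 and -1.49 for GPX2. Among the genes of secreted, hypoxia and junction functions it was -1.12 for FGB, -1.13 for CP, -1.10 for CA9, -1.02 for EGLN3, -1.97 for CLDN2, -1.23 for VIL1, -2.06 for HLA-DMB, -1.19 for CCN2 and -1.84 for COL3A1, and for the mitochondrial MT-ND3 it was -1.05. Among developmental and remaining genes it was 1.51 for GATA6, 1.92 for CDKN1C, 2.28 for ALOXE3, 2.39 for CCBE1 and 1.54 for AL390719.1.

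For some genes a group was at or near the limit of detection, so that the fitted size is no bound. SCNN1G (-8.95), RASD1 (-4.00), KCNQ3 (-4.08) and FOXJ1 (2.94) were near 0 in vehicle-treated empty-vector cells. KLK2 (-5.50) had no count there and was at 0.165 to 0.899 CPM in empty-vector cells given CP14. ZEB2 (3.23) and AC034213.1 (2.66) were at the limit with vehicle in USP18 cells and at 1.03 to 1.85 CPM and 0.330 to 1.01 CPM in empty-vector cells. AC005324.3 (2.94) was at 0.348 to 0.478 CPM with vehicle and 4.36 to 5.89 CPM with CP14 in USP18 cells, against 2.92 to 4.04 CPM and 3.31 to 7.47 CPM. CU634019.1 (14.4) was at 7.22, 0.0495 and 0.0512 CPM with CP14 in USP18 cells and 0 to 0.0478 CPM with vehicle, so its value rests on CP14 replicate 1.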

How the results depend on the processing

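The count of called genes for CP14 at 5 µM against vehicle was 2865 with either the TMM or the RLE scaling of edgeR, 2769 with DESeq2, 2988 with all 54 libraries in the fit, 2633 with only the 6 libraries, 3288 without a filter and 1842 with at least 10 counts required in every library. With that last filter the interaction called 266 genes and CP14 at 5 against 2.5 µM called 1262, and fewer genes entered (13427 and 13645), since genes near the limit of detection in a group are left out. DESeq2 called 338 genes by interaction. Leaving out 1 replicate at a time gave 2811 to 2950 genes for CP14 against vehicle, 386 to 514 for the interaction, 1828 to 2097 between the doses, 2600 to 2726 against CP18 and 2665 to 2824 against CP2. The highest count between the doses (2097) came without replicate 1 at 2.5 µM.

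Vehicle and CP14 libraries with the same replicate number did not deviate together (correlations of -0.04, -0.03 and 0.02), so the numbers were not used as pairs. With the replicate block 2845 genes were called against vehicle, 430 by interaction, 1888 between the doses, 2631 against CP18 and 2707 against CP2. No direction of a named gene with an adjusted p under 0.05 turned under these settings. Leaving out 1 library at a time turned values that had not passed the test, with ranges of -0.082 to 0.29 for BCL2 (below 0 without vehicle replicate 1 or 3), -0.045 to 0.036 for CCND1 (above 0 without CP14 replicate 1), -1.47 to 0.062 for RPPH1 (-1.03 with all libraries, above 0 without vehicle replicate 2) and -0.016 to 0.0097 for SLC2A1 (above 0 without CP14 or vehicle replicate 3). The median of the histone genes, -0.15, was 0.11 with the stricter filter and ranged from -0.26 to 0.054 (above 0 without CP14 or vehicle replicate 2), and that of the small RNAs from -0.32 to 0.51 (above 0 without vehicle replicate 2). The cause of these shifts was not tested. With 3 libraries per group, 34 of the fold changes of named genes recomputed without 1 library missed the threshold that they had passed, as did 67 of the interactions, and under the other settings 10 and 9 did and 1 fold change newly passed. List medians moved by more than their spread over the CP14 libraries, without turning, in 29 of the refits without 1 library and in 7 under other settings. Of these, the median of the hepatocyte-type genes, -1.37, was -0.92 with the stricter filter and -0.97 with only the 6 libraries.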
